A study of Mus musculus with 6 samples.

Results

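Spi1, Cebpa and Irf8 encode transcription factors of myeloid differentiation, and H3K79me2 over their loci was described in a mouse model of myeloid leukaemia in which the transcriptional cofactor MN1 (meningioma-1) is the driver. The members are the H3K79me2 peaks that overlap by at least 1 base a window of mm9 around each gene: chromosome 2, 90920000 to 90957000 for Spi1, chromosome 7, 35900000 to 35910000 for Cebpa, and chromosome 8, 123255000 to 123285000 for Irf8. The windows held 6 of the 18992 peaks in the deposited list, 2 at Spi1, 1 at Cebpa and 3 at Irf8. The windows were proposed with the peaks already known. The Spi1 window begins 0.104 kb before its first peak and ends 1.095 kb after its last, so the share of a window under peaks depends on how it was drawn.

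The series holds 3 libraries of chromatin precipitated with an H3K79me2 antibody and 3 input libraries, which are chromatin sequenced with no antibody. All of them came from leukaemic blasts sorted from the marrow of moribund C57BL/6 mice transplanted with MN1-transformed CMP cells and then kept briefly in M3234 medium with FBS, Il3, Il6 and SCF. Both groups carry the conditional Dot1l f/f allele, not inactivated, so the gene of the enzyme that places the mark had not been deleted. The culture step means that the chromatin is that of cells after a time outside the animal, and whether each library number stands for its own mouse is not in the labels. The result is 1 list over the combined libraries, with no value per library. No spread between replicates can therefore be given for any peak, no test between samples was run, and every difference given here is between values of the pooled list. The list names no genes, so the labelled myeloid identity of the blasts was not checked against marker genes.

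DOT1L is the methyltransferase of lysine 79 of histone H3, a residue on the core of the nucleosome and not on its tail. The dimethyl mark lies over transcribed genes, from the start site into the gene body, and long stretches of it are known at genes of leukaemia cells with MLL fusions. PU.1, the ETS-family product of Spi1, is required for macrophages, granulocytes and B cells. C/EBPα, the basic leucine zipper product of Cebpa, is required for the step to granulocyte and monocyte progenitors. IRF8, an interferon regulatory factor, favours monocytes and dendritic cells over granulocytes and can bind DNA together with PU.1.

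The base sequence just before the transcription start is shown for the genes found in the RefSeq promoter table of GRCm38.p6, to show the DNA at the start of each gene. The table held 2 of the 3 genes, Cebpa and Irf8. Each sequence is the 250 bases before the start on the + strand, chr7:35119043-35119292 for Cebpa and chr8:120736108-120736357 for the first of the listed starts of Irf8. These positions are in another build than the peaks, so where the start lies within or beside a peak was not determined. Capitals mark matches to a TATA box (TATAAA) and to the GAS element (TTCNNNGAA, the site of STAT factors).
Cebpa: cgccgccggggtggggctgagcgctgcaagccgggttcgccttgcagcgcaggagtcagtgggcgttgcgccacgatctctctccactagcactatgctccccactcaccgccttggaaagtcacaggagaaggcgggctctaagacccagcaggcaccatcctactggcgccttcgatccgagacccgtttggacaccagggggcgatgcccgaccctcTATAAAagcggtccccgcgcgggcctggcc
Irf8: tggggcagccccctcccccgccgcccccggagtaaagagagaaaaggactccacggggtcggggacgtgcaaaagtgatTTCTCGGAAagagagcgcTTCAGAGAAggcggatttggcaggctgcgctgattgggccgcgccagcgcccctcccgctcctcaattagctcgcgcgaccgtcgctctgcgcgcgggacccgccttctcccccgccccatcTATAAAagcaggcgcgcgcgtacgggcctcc

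Both sequences held TATAAA on the + strand, 30 to 25 bases before the start in Cebpa and 31 to 26 bases before it in Irf8. The same letters, on either strand, occurred in 12.4% of the 32851 sequences of the same length in the table. The printed Irf8 start also held 2 GAS matches, TTCTCGGAA at 171 to 163 and TTCAGAGAA at 153 to 145 bases before the start, on letters found in 7.02% of the table. The GAS letters read the same on both strands. A search on both strands for GAGGAAG, a core of the PU.1 site, and for TTGCGCAA, a C/EBP palindrome, gave no match in either sequence, and these letters occurred in 10.6% and 0.164% of the table. CCAAT occurred once, on the opposite strand of Irf8, 121 to 117 bases before the start, and in 33.8% of the table. None of these matches overlapped another. Cebpa held 22 CpG and the printed Irf8 start held 29, against a median of 6 over the table, and their GC content was 66.4% and 67.2% against a median of 52.4%. The other listed start of Irf8, on the + strand at chr8:120738389-120738638 and not printed, held 8 CpG at a GC content of 54%, and none of the 5 motifs matched there. A match describes the letters and is not a binding site.

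H3K79me2 was strong in the Cebpa window and in the right-hand stretch of the Spi1 window, and weak and broken in the Irf8 window. Where each gene begins and ends within its window was not determined. Fold is the authors' ratio of the pooled H3K79me2 pileup to the control background, and the highest folds at the loci were 9.42 for Cebpa, 7.43 for Spi1 and 2.85 for Irf8. The strongest Cebpa peak was 3.31 times as enriched as the strongest Irf8 peak and 1.27 times as enriched as that of Spi1. The strongest Spi1 peak was 2.61 times as enriched as that of Irf8. Because the libraries are pooled, the error of these ratios cannot be given.

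**Figure D1:**
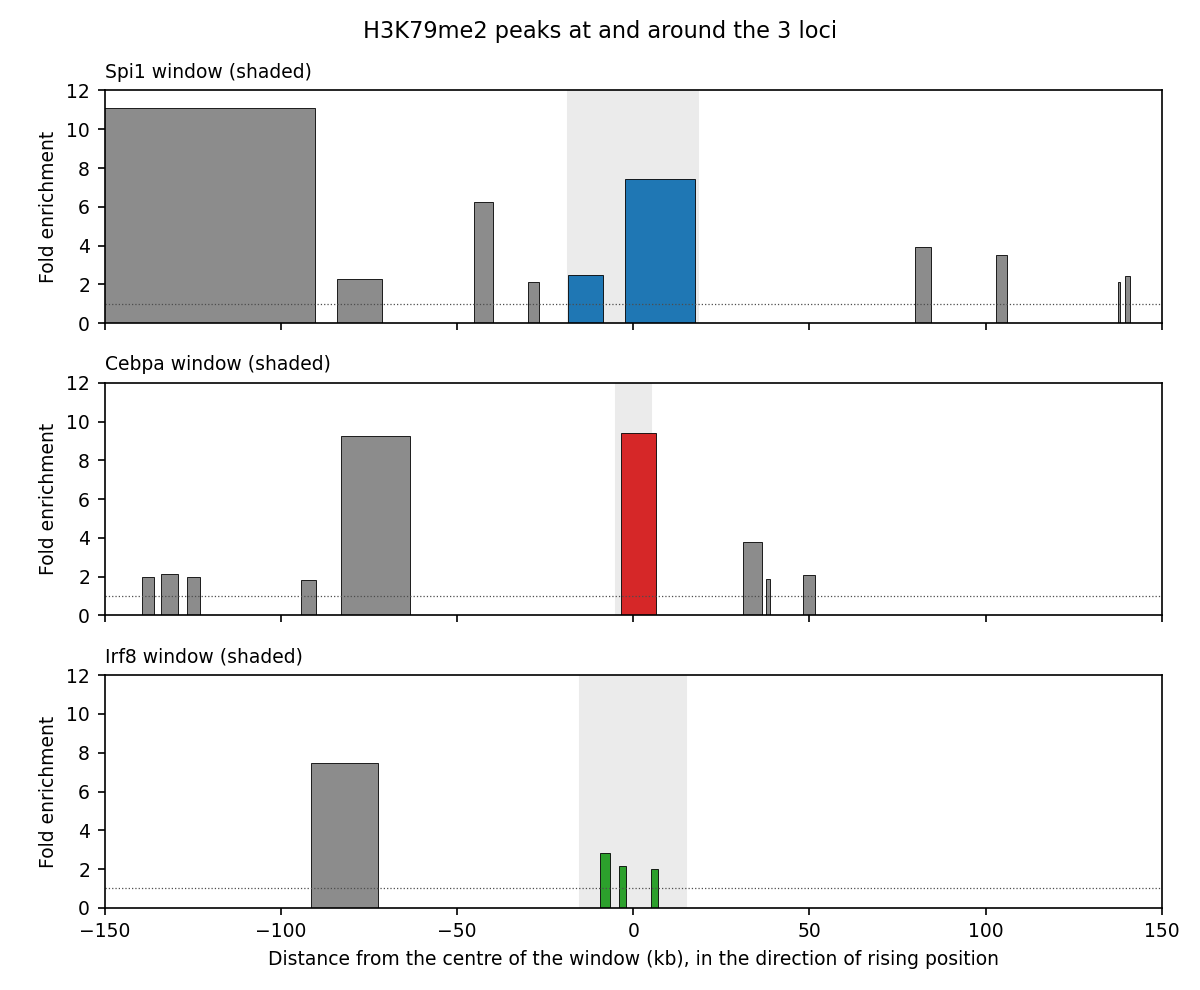
Fold enrichment of H3K79me2 peaks (bar height) against distance from the centre of each window in kb, over 150 kb on each side; bar width is peak width, coloured bars are the peaks in the shaded windows of Spi1, Cebpa and Irf8, grey bars are other peaks and the dotted line is a fold of 1. Cebpa has 1 peak at a fold of 9.42, Spi1 a low and a high peak at 2.48 and 7.43, and Irf8 3 narrow peaks at no more than 2.85.

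Cebpa carried 1 compact, strong region. Its peak on chromosome 7 ran from 35901426 to 35911456, a width of 10.03 kb, with a pooled pileup of 133 reads at a −log10 q of 95.6 and a fold of 9.42. The pileup is the authors' coverage of the combined H3K79me2 reads, and since its scaling is not stated, its reads may not be whole counted reads. The −log10 q is the authors' value of the peak caller's test on pooled reads and carries no spread between replicates. The peak covered 85.7% of the 10 kb window and ran on for 1456 bases past its right edge. By fold it ranked 547th from the top of the list, with 97.1% of the list lower, and by pileup it ranked 319th.

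The Cebpa peak stood high among peaks of its own width too. Of the 5735 peaks between 0.5 and 2 times as wide, 96.8% had a lower fold, and their median was 3.69. Of the 547 peaks at least as strong, counting itself, 81, or 14.8%, were no wider, and the median width of the 547 was 26.8 kb. It was the 31st strongest of the 1168 peaks of chromosome 7. No peak within 500 kb of the window was stronger.

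The Spi1 window held a weak and a strong peak side by side. The left peak on chromosome 2, from 90920104 to 90930005, was 9.90 kb wide with a pileup of 29.9 reads, a −log10 q of 4.82 and a fold of 2.48. The right peak, from 90936180 to 90955905, was 19.7 kb wide with a pileup of 97.96 reads, a −log10 q of 55.4 and a fold of 7.43. A gap of 6.17 kb parted them.

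The contrast between the Spi1 peaks held against peaks of like width. The right one exceeded 91.3% of the list by fold and 79.96% of the 4646 peaks of like width, whose median fold was 4.95. The left one exceeded 54.4% of the list but only 29.9% of the 5743 peaks of like width, whose median fold was 3.67. The left Spi1 peak and the Cebpa peak were almost as wide as each other, 9.90 and 10.03 kb, with folds of 2.48 and 9.42. Together the Spi1 peaks covered 29.6 kb, or 80.1% of the 37 kb window, and 66.6% of that length lay in the strong peak.

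Irf8 carried 3 short, weak peaks. The left one on chromosome 8, from 123260522 to 123263528, was 3.01 kb wide with a pileup of 36.8 reads, a −log10 q of 7.27 and a fold of 2.85. The middle one, from 123265852 to 123268089, was 2.24 kb wide with a pileup of 24.1 reads, a −log10 q of 2.75 and a fold of 2.14. The right one, from 123275147 to 123277013, was 1.87 kb wide with a pileup of 22.3 reads, a −log10 q of 2.17 and a fold of 2.02. Width, pileup, fold and −log10 q were all lower at each step to the right.

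The Irf8 peaks were near the middle of the list and above the middle of peaks of their width. By fold, 59.6%, 44.2% and 36.7% of the list was lower than the left, middle and right peak, whereas 75.7%, 66.9% and 62.5% of the peaks of like width were lower. The lowest pileup in the list was 19 reads and the median 27.2, and the middle and right peaks lay between these values. By pileup, 39.5% and 28.1% of the list was lower than the middle and right peak. The 3 peaks covered 7.11 kb, or 23.7% of the 30 kb window, and left 22.9 kb without a peak. Signal in that remainder too weak to be called would not appear in the list.

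The loci differed more in H3K79me2 pileup than in control background. The control background under a peak, computed from its pileup and fold, was 13.2 reads at Cebpa, 12.3 at the right and 11.5 at the left Spi1 peak, and 12.3, 10.8 and 10.5 from left to right at Irf8. Over the list its median was 11.2 and its lowest value 10.52. Within 0.1 of that lowest value lay 18.9% of the peaks of the list, the right Irf8 peak among them. The pileup of the strongest Cebpa peak was 3.61 times that of the strongest Irf8 peak, and the background was 1.08 times as high. For the strongest peaks of Spi1 and Irf8 the ratios were 2.66 for the pileup and 1.003 for the background.

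**Figure D2:**
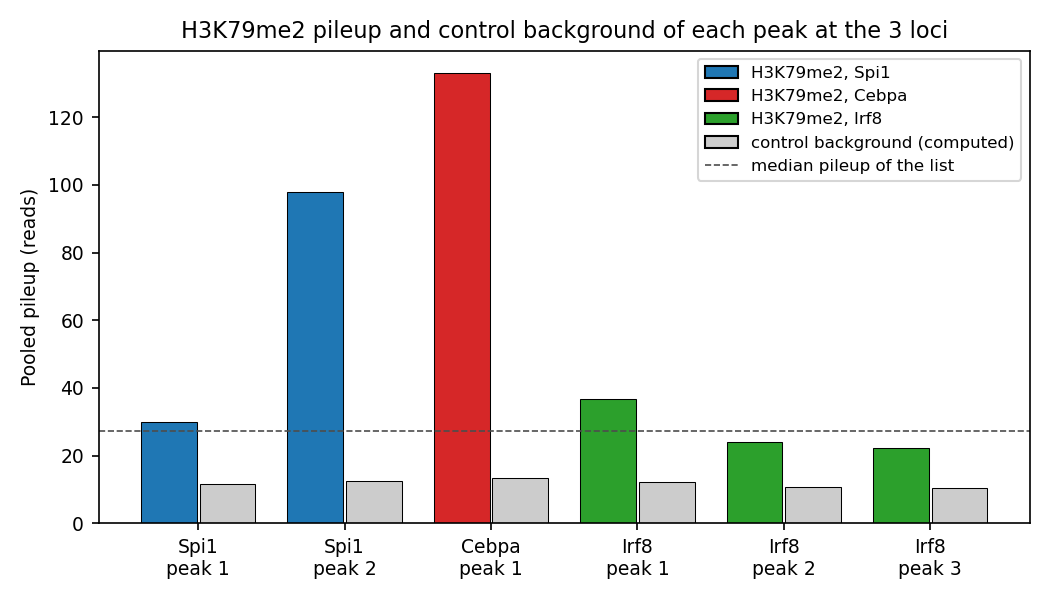
Pooled H3K79me2 pileup (coloured bars, left of each pair) and computed control background (grey bars) in reads for each of the 6 peaks, numbered from left to right within a window; the dashed line is the median pileup of the list, 27.2 reads. The pileup runs from 22.3 to 133 reads, whereas the background stays between 10.54 and 13.2.

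Past a fold of 4 there were 2 of the 6 peaks, 33.3%, against 29.3% of the whole list, and they were the Cebpa peak and the right Spi1 peak. This share lies near that of the list and marks nothing particular about the loci as a group. The same 2 peaks passed a fold of 3 or of 6, where the list had 38.5% and 15.7%. A −log10 q of at least 10 was again reached by these 2 peaks, against 36.4% of the list. The first Irf8 peak joined them at a −log10 q of at least 5, making 3 of 6, against 45% of the list.

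**Figure D3:**
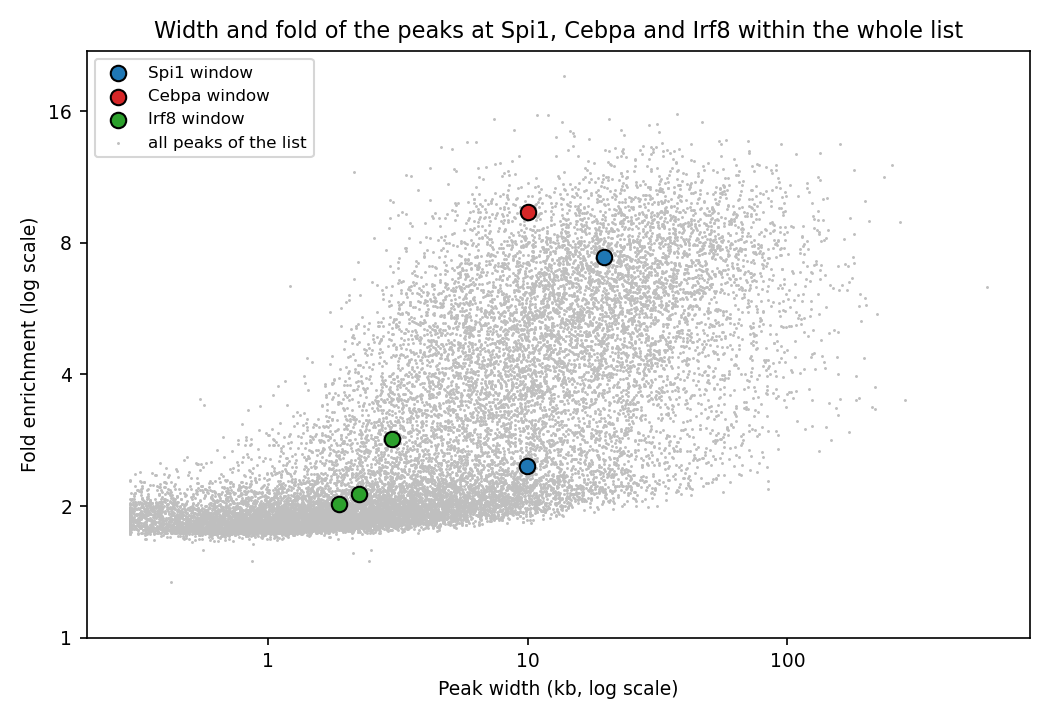
Fold enrichment against peak width in kb, both on log scales, for the 6 peaks of the Spi1, Cebpa and Irf8 windows (coloured) and all 18992 peaks (grey). The Cebpa peak lies near the upper edge at its width, and the Spi1 peaks lie apart at folds of 2.48 and 7.43. The Irf8 peaks are narrow, at folds of 2.02 to 2.85. For their width they lie above the median fold, whereas the left Spi1 peak lies below it.

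The share of each window under peaks differed with the locus, the threshold and the width of the window. As deposited, 80.1% of the Spi1, 85.7% of the Cebpa and 23.7% of the Irf8 window was covered, against 8.71% of the span from the first to the last peak of each chromosome, summed over all. Tiles of the same length laid over that span describe the list: 3.60% of tiles of 37 kb were covered at least as fully as the Spi1 window, 5.65% of those of 10 kb as the Cebpa window and 12.5% of those of 30 kb as the Irf8 window. Tiles that held any peak were covered by a median of 33.9%, 71.1% and 38.1% at these lengths, so the Irf8 window was below the median of marked tiles. At a −log10 q of at least 10 the shares were 53.3% for Spi1, 85.7% for Cebpa and 0% for Irf8. With each window widened by 10 kb on both sides, they were 55.2% for Spi1, 33.4% for Cebpa and 14.2% for Irf8, so that Spi1 and not Cebpa had the highest share.

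**Figure D4:**
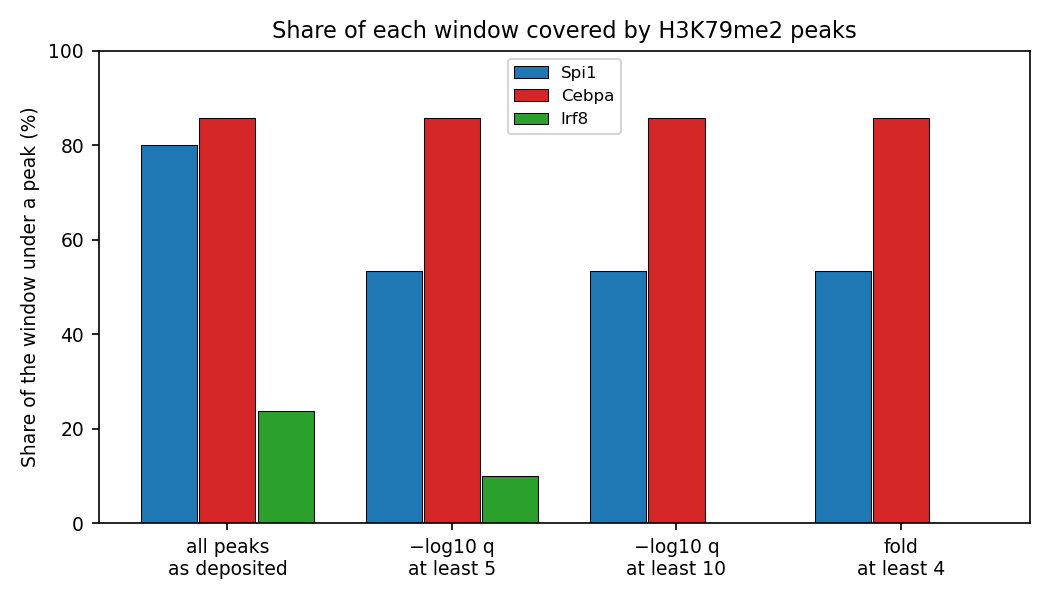
Share of the Spi1, Cebpa and Irf8 windows under an H3K79me2 peak, in percent, with all peaks and with those past 3 stricter limits. Cebpa stays at 85.7%, Spi1 drops to 53.3% and Irf8 drops to 10.02% and then to 0%.

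The surroundings of the 3 loci differed. In the RefSeq table of GRCm38.p6, whose order of genes was used and not its positions, Spi1 lies between Slc39a13, a zinc transporter gene, and Mybpc3, which encodes a myosin-binding protein of heart muscle. Cebpa lies between Gm45095 and Slc7a10, an amino acid transporter gene, and Irf8 between Cox4i1, a cytochrome c oxidase subunit gene, and Foxf1, a forkhead factor gene. No peak was assigned to these genes.

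Spi1 sat among other marked regions, and more of these were past a fold of 4 than around Cebpa or Irf8. The nearest peak on its left, from 90908545 to 90911837, lay 8.16 kb before the window at a fold of 2.11, and the next, from 90893263 to 90898814, had a fold of 6.27 and a pileup of 73.9 reads over 5.55 kb. On the right the nearest peak, from 91018524 to 91022933, lay 61.5 kb beyond the window at a fold of 3.95. Within 100 kb of the window there were 6 other peaks, which with the Spi1 peaks covered 36.8% of the sequence. One of them was stronger than Spi1, a region of 67.5 kb from 90780589 to 90848087 with a fold of 11.1 and a pileup of 145.6 reads. Within 500 kb there were 23 other peaks, 9 of them past a fold of 4 and 2 stronger than Spi1. The Irf8 window had the same number of other peaks at that distance, 3 of them past a fold of 4.

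The Cebpa peak had long gaps on both sides, though shorter than those of 62.9 and 352.7 kb beside the Irf8 peaks. On its left, 59.9 kb without a peak led to a region from 35822098 to 35841571, 19.5 kb wide, with a fold of 9.25 and a pileup of 123.3 reads, almost as strong as Cebpa itself. On its right, 24.7 kb without a peak led to a region from 35936161 to 35941466, 5.31 kb wide, with a fold of 3.77. Gaps longer than these made up 22.8% and 34.9% of the 18971 gaps of the list, whose median was 9.01 kb. Of the 547 peaks at least as strong as Cebpa, 127, or 23.2%, had gaps of at least 24.7 kb on both sides. The 15 other peaks within 500 kb had a median fold of 2.15, and 4 of them were past a fold of 4.

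Of the 3 loci, Irf8 had the longest gap beside it, on its right. The next peak there, from 123629678 to 123632107, came after 352.7 kb without any, 2.43 kb wide with a fold of 4.69, and 7.11% of the gaps of the list were longer. On its left, 62.9 kb without a peak led to a region from 123178636 to 123197606, 18.97 kb wide, with a pileup of 91.8 reads and a fold of 7.45. That region was the only other peak within 100 kb of the window, and it was stronger than any Irf8 peak. Within 500 kb there were 23 other peaks, 4 of them stronger than the first Irf8 peak. The gaps between the Irf8 peaks themselves were 2.32 and 7.06 kb.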

How the data were processed

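H3K79me2 and input chromatin of MN1-driven leukaemias were sequenced as 3 libraries each, with groups and numbers taken from the titles. The submitters' processing notes name MACS2 for the peaks, GSNAP, SAMtools and bedtools 2.25.0 besides CASAVA 1.8.2, and the build mm9, without settings. Each deposited peak has, per the file headers, a length, a pileup signal, a fold (the ratio of pileup to control), a −log10 q and a −log10 p, which was not used. Pileup and fold may be averages over a peak. These are the authors' own values and describe peaks within this list only. The number of reads per library is unknown, so depth is seen only through the pileup, which had a median of 27.2 reads and ran from 19 to 280.6.

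The members, lists and windows were chosen with earlier results of these data known. Named are every peak in the 3 windows, the peaks nearest to them and the neighbouring genes; the second and the strongest neighbour of Spi1 were chosen after their values were seen. For the control background, 1 was added to the pileup, the sum divided by the fold and 1 taken off; that the peak caller itself adds 1 to both terms is assumed and was not tested. Ranks, covered shares and tiles describe the list and are not tests. Other myeloid genes were not placed, because no mm9 annotation was used here. Alternatives were limits of 5 or 10 on −log10 q and of 3, 4 or 6 on fold, merging, a wider window, a stricter overlap and other ranks. The functions for overlap, cover, merging and ranks were tested on invented intervals, and cover also on random windows over deposited peaks of 1 chromosome. The background formula was tested on the deposited pileups with a simulated background. Computations ran in Python 3.11.15 with pandas 2.3.3, numpy 2.4.6 and scipy 1.17.1, and plots in matplotlib 3.10.9.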

Additional observations from a re-analysis of the deposited data

How the results depend on the processing

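No paired analysis was possible because no peak has a value per library; leaving out a replicate could not be run for the same reason, nor could the other myeloid genes without annotation of mm9. Of 70 alternative values, 34 were labelled as staying and 36 as moved. Staying meant within 1.5 times the count, within the exact binomial 95% interval of the share, or equal for the share past a fold of 4. A change of direction was not checked. The intervals cover no spread between replicates. For covered shares they treat each base of a window as a separate trial, although neighbouring bases under a peak are not independent. The labels of those rows therefore do not measure error. Of the 6 peaks, 3 were left at a −log10 q of at least 5 (1 at Spi1, 1 at Irf8), 2 with −log10 q limited to at least 10 and 2 with the fold limited to at least 4 (1 at Spi1, 0 at Irf8), and 3 after merging across 10 kb (1 at Spi1, 1 at Irf8), an alternative chosen after seeing the data. Cebpa kept its 1 peak under these. The covered share of the Spi1 window, 80.1%, was 53.3% under each of these 3 limits, 97.04% after merging across 10 kb and 55.2% in a window widened by 10 kb on each side. That of Cebpa, 85.7%, moved to 33.4% in the widened window. That of Irf8, 23.7%, was 10.02% at a −log10 q of at least 5, 0% with −log10 q limited to at least 10 or the fold to at least 4, 31.4% after merging across 3 kb, 54.97% across 10 kb and 14.2% in the widened window. The share of the list below the strongest peak, 97.1% for Cebpa, 91.3% for Spi1 and 59.6% for Irf8 by fold, was 98.3%, 92.4% and 61.6% by pileup, 92.1%, 76.0% and 0.0433% among peaks with a −log10 q of at least 10, and 96.8%, 79.96% and 75.7% among peaks of like width. By −log10 q it was 98.2% for Cebpa and 90.7% for Spi1, and on its own chromosome 57.4% for Irf8. The strongest Irf8 peak has a −log10 q under 10 and so ranks below nearly all of that stricter list by construction. Cebpa ranked above Spi1 and Spi1 above Irf8 in each of these comparisons. The lowest pileup in the list is 19 reads, and marking at Irf8 too weak to be called would not appear in it.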

Other observations

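Merging showed how each locus is built, as values chosen after the data were seen. Across gaps of at most 10 kb, both Spi1 peaks joined the 2 nearest peaks on their left into 1 region of 62.6 kb, from 90893263 to 90955905 on chromosome 2, made of 4 peaks with a mean fold of 5.53 weighted by length. The 3 Irf8 peaks joined into 1 region of 16.5 kb, from 123260522 to 123277013 on chromosome 8, with a mean fold of 2.41. Cebpa joined nothing at this distance.

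The window edges of the 3 loci were not placed alike. The first Irf8 peak began 5.52 kb inside its window and the last ended 7.99 kb before its right edge, whereas the Spi1 peaks reached almost from edge to edge and the Cebpa peak began 1.43 kb inside its window and ran past the other edge.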
